A study of Magallana angulata with 3 samples.

Results

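A set of 56 genes, of 28027 listed and of 8524 with a comparable mean level, was higher in the DM library of oyster adductor muscle than in the other 2 libraries. A gene entered the set when its log2(RPKM + 1) in DM was at least 1 above that in DF and at least 1 above that in T, when DF and T lay less than 1 apart, and when its mean over the 3 libraries was at least 5 and under 1000 RPKM. RPKM is a read count divided by the length of the gene and by the size of the library. A step of 1 on this log2 scale is called 2-fold below. The added 1 makes it more than 2-fold in RPKM, and by more the lower the level. Ratios given with a counting interval are of RPKM itself, without the added 1. The genes were chosen by their RPKM values in all 3 libraries, so that every difference between DM and the others is a description and carries no test.

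The animals were Fujian oysters, Magallana angulata. DF and DM are diploid libraries and T is a triploid one, with 1 library for each label. The diploids were bred by crossing diploid parents. The triploids came from the same parents, with a chemical used to retain polar body II, and all animals were held for 1 year at equal temperature and food. The letters F and M are not explained, and how many animals entered a library is not stated. A difference between libraries can therefore not be told apart from a difference between single animals, between pools or between library preparations. In addition, bulk RNA does not show whether a transcript differs because more cells hold it or because each cell holds more.

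The adductor is the muscle that closes the shell of a bivalve. It has a striated part for fast closure and a smooth part that can hold tension for long at little cost, and haemolymph with its haemocytes passes through it. An egg that keeps its second polar body keeps an extra maternal chromosome set, and triploid oysters made in this way are known for reduced gonad growth. The files pair no identifier with a gene name, and the reference gene table of the species holds 0 of the 28027, members included. No role, family, position or sequence is therefore given for any member, and the tissue label could not be checked against muscle markers. Only 2 members are given by identifier, and the others by their rank or by their values.

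The libraries differ in how much of their reads a single gene takes. The most abundant gene held 33.8% of reads in DM, against 17.6% in DF and 23.9% in T. The totals, recovered from the spacing of the RPKM values, were 2057805 reads for DM, 1805591 for DF and 2137859 for T. Totals 2 times as large also gave whole reads, but those reads summed to only 80.1% to 83.7% of them, so the smaller totals were used. With the larger ones, 32 members would have 2 times the reads given here and 24 the same reads. Over the 8524 genes of the same range, the median level was 11.5 RPKM in DM, against 21.2 in DF and 16.9 in T. DM was the highest library in 11.6% of them, DF in 60.0% and T in 28.4%. The median log2 difference of DM was -0.72 from DF and -0.47 from T. A gene of this range was thus usually lower in DM on the deposited scale, and the 56 members lay on the other side.

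As a share of the 8524 genes, the members made up 0.657%. The same rule with the libraries exchanged found 904 genes higher in DF alone, which is 10.6%, and 248 higher in T alone, which is 2.91%. Turned downwards, it found 1118 genes lower in DM alone (13.1%), 120 lower in DF alone (1.41%) and 124 lower in T alone (1.45%). Against single libraries, 4.88% of the genes were at least 2-fold higher in DM than in DF, and 3.75% than in T. On the deposited scale, DM had the fewest genes to itself on the upper side and the most on the lower side. The order on the upper side changed with the scaling, as described further on.

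**Figure D1:**
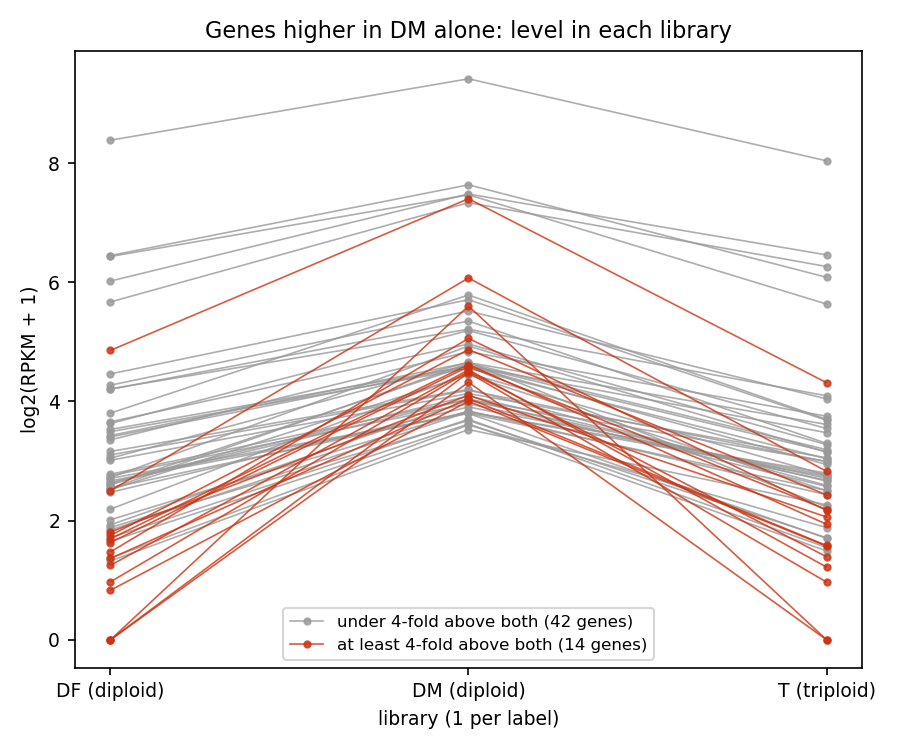
Level of each of the 56 members in the DF, DM and T libraries, as log2(RPKM + 1), with 1 library per label. Each line joins the values of 1 gene, in red for the 14 members at least 4-fold above both other libraries and in grey for the other 42. Every line peaks at DM, which the rule fixes, and the red lines start from low levels in DF and T in all but 1 case.

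Most members were genes of modest level. In DM they ranged from 10.5 to 681 RPKM with a median of 22.3. In DF they ranged from 0 to 333 RPKM with a median of 5.19, and in T from 0 to 262 with a median of 5.73. In DM, 40 members had 10 to under 30 RPKM, 10 had 30 to under 100, and 6 had 100 or more. Under 10 RPKM were 41 members in DF and 42 in T. Against the medians of the 8524 genes given above, the members' median was higher in DM and lower in DF and in T. The rule favours this pattern, since it asks for DM above both others within a fixed range of the mean.

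All members together rested on 2941 reads in DM, 749 in DF and 836 in T. This was 0.143% of all DM reads (95% exact binomial interval 0.138 to 0.148), 0.0415% of those of DF (0.0386 to 0.0446) and 0.0391% of those of T (0.0365 to 0.0418). The summed reads per library total were 3.45 times as high in DM as in DF (95% counting interval 3.18 to 3.74) and 3.65 times as high as in T (3.38 to 3.95). The same values chose the members, and each had to pass the limit of the rule against DF and against T. The choice therefore placed both summed ratios above that limit. Their intervals describe the depth of the pooled reads and are no independent support for a difference. All intervals given here cover the counting of reads and nothing else. They leave out the spread between animals and between preparations, and they can be too narrow for molecules, since amplified copies are not separate ones.

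The member with the largest difference was CGI_10023821. It had 47.5 RPKM in DM and was listed at 0 in DF and in T. The DM value came from 27 reads and has a 95% counting interval of 31.3 to 69.2 RPKM. With 0 reads, the other libraries allow up to 3 reads each, which for this gene is 6.02 RPKM in DF and 5.08 in T. Against that floor, the DM level as counted was at least 7.90-fold higher than DF and at least 9.35-fold higher than T. With the counting error of DM included, the 95% counting intervals began at 5.99 and 7.10. The recovered coding length of CGI_10023821 is 276 nt, which is short against the median of the range.

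The member with the highest level in DM was CGI_10005960. It had 681 RPKM in DM from 471 reads, against 333 in DF from 202 and 262 in T from 188. The counting intervals of the levels were 621 to 746 RPKM for DM, 289 to 382 for DF and 226 to 302 for T, so that the interval of DM did not overlap the others. The same values chose this gene, so the lack of overlap describes its depth and is no independent support. DM was 2.05-fold higher than DF (95% counting interval 1.73 to 2.42) and 2.60-fold higher than T (2.19 to 3.10). CGI_10005960 thus carries the most reads of the set and one of its smallest differences, rank 53 of 56 by the smaller of the log2 differences.

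The smaller of the log2 differences of DM from DF and from T had a median of 1.36 over the members and ran from 1.0003 to 5.60. By this measure, in which the added 1 decides the size where a library is at 0, 33 members were 2-fold to under 3-fold higher in DM, 9 were 3-fold to under 4-fold, 8 were 4-fold to under 8-fold, and 6 were at least 8-fold higher. Over the members, the median log2 difference was 1.73 from DF and 1.67 from T, where the 8524 genes had the values of -0.72 and -0.47 given above. The choice of the members sets these medians.

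**Figure D2:**
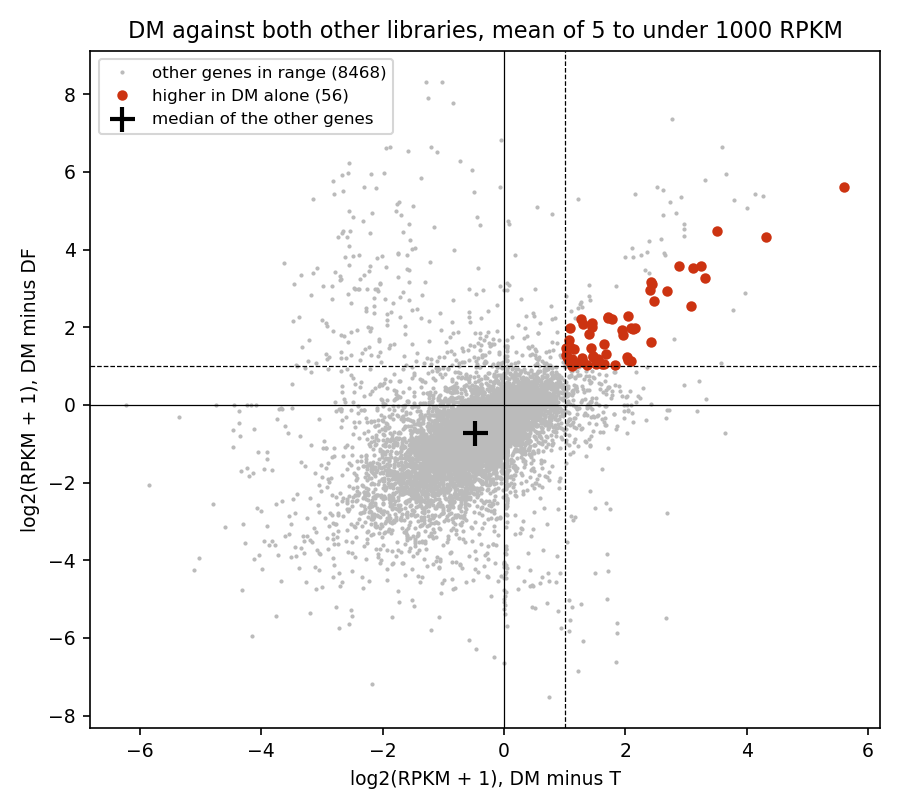
Log2 difference of DM from T (horizontal) and of DM from DF (vertical) for the 8524 genes with a mean of 5 to under 1000 RPKM, on the log2(RPKM + 1) scale. Members are red, other genes grey, the dashed lines mark 1 and the cross marks the median of the other genes. The cross lies below 0 on both axes, and part of the cloud lies above 0. The 45 grey genes past both dashed lines are not members because DF and T differed by 2-fold or more.

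On the log2(RPKM + 1) scale, 14 members were at least 4-fold higher in DM than in both other libraries. These 14 had few reads in DF and T. By the ratio of RPKM, further members passed 4-fold. Among them was the member of rank 15, 5.26-fold above DF and 6.23-fold above T, from only 6 reads in DM. The 14 are 0.164% of the 8524 genes, where 216 genes (2.53%) were as far above the other 2 in DF alone and 67 (0.786%) in T alone. Their levels ran from 15.0 to 168 RPKM in DM with a median of 22.6, from 0 to 28.0 in DF with a median of 1.68, and from 0 to 18.9 in T with a median of 2.41. They summed to 916 reads in DM, 66 in DF and 95 in T. In DM each had between 21 and 178 reads. In all 14 the 95% counting interval of the ratio left out 2-fold against DF and against T, which describes the depth of these reads and is no independent support, since the same values chose the 14.

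Of these 14, the second by rank was again listed at 0 in DF and T. It had 19.0 RPKM in DM from 21 reads (interval 11.8 to 29.0), and as counted was at least 6.14-fold higher than DF and at least 7.27-fold higher than T against the floor of 3 reads. Its 95% counting intervals began at 4.57 and 5.41. The third was listed at 0 in DF, had 21.4 RPKM in DM from 43 reads, and 0.957 in T from 2 reads. DM as counted was at least 12.6-fold above DF against the same floor, with a counting interval from 9.80, and 22.3-fold above T, with an interval as wide as 5.82 to 190. These 2 and CGI_10023821 are the only members with 0 reads in DF. The first 2 by rank are the only ones with 0 reads in T.

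The members next in rank had reads in every library, but several had very few in DF, so that not all of their ratios are better bounded. The member of rank 12, with 1 read in DF, was 19.3-fold above DF with an interval of 3.12 to 797. That of rank 8, with 2 reads in DF, was 10.5-fold above DF (2.61 to 91.9). Some with more reads are described next. The fourth had 22.1 RPKM in DM from 128 reads, against 1.38 in DF from 7 and 1.33 in T from 8. DM was 16.0-fold higher than DF (7.57 to 40.7) and 16.6-fold higher than T (8.19 to 39.3). With a coding length of 2814 nt it is the longest member. Its levels in DF and T were nearly equal, and DM lay far above both.

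The fifth by rank had the most reads among the 14. It had 66.3 RPKM in DM from 178 reads, against 4.67 in DF from 11 and 6.09 in T from 17, which made DM 14.2-fold higher than DF (7.75 to 29.0) and 10.9-fold higher than T (6.60 to 19.1). The sixth had 21.7 RPKM in DM from 77 reads, against 0.963 in DF from 3 and 1.63 in T from 6. DM was 22.5-fold above DF (7.42 to 112) and 13.3-fold above T (5.85 to 37.5). In both genes DF was a little below T, and the counting intervals of the DF and T levels overlapped.

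1 gene of the 14 was already well expressed in DF and T. The ninth by rank had 168 RPKM in DM from 137 reads, against 28.0 in DF from 20 and 18.9 in T from 16. DM was 6.01-fold higher than DF (3.74 to 10.1) and 8.90-fold higher than T (5.29 to 16.0). It was the only member above 100 RPKM in DM that was also at least 4-fold above both other libraries.

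The other 5 members above 100 RPKM in DM stood only a little beyond the limit. The second highest in DM had 198 RPKM in DM from 94 reads, against 86.3 in DF from 36 and 66.8 in T from 33. The next had 178 RPKM in DM from 57 reads, against 63.9 in DF from 18 and 87.0 in T from 29, and DM was 2.04-fold higher than T (1.28 to 3.31). A further one had 176 RPKM in DM from 188 reads, against 85.4 in DF from 80 and 48.7 in T from 54, and DM was 2.06-fold higher than DF (1.58 to 2.71). In these 3 genes and in CGI_10005960 the counting intervals of the ratio left out 1 but held 2-fold against at least 1 of the other libraries. The sixth highest had 161 RPKM in DM from 110 reads, against 49.9 in DF from 30 and 75.9 in T from 54, with T 2.12-fold below DM (1.51 to 2.99).

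**Figure D3:**
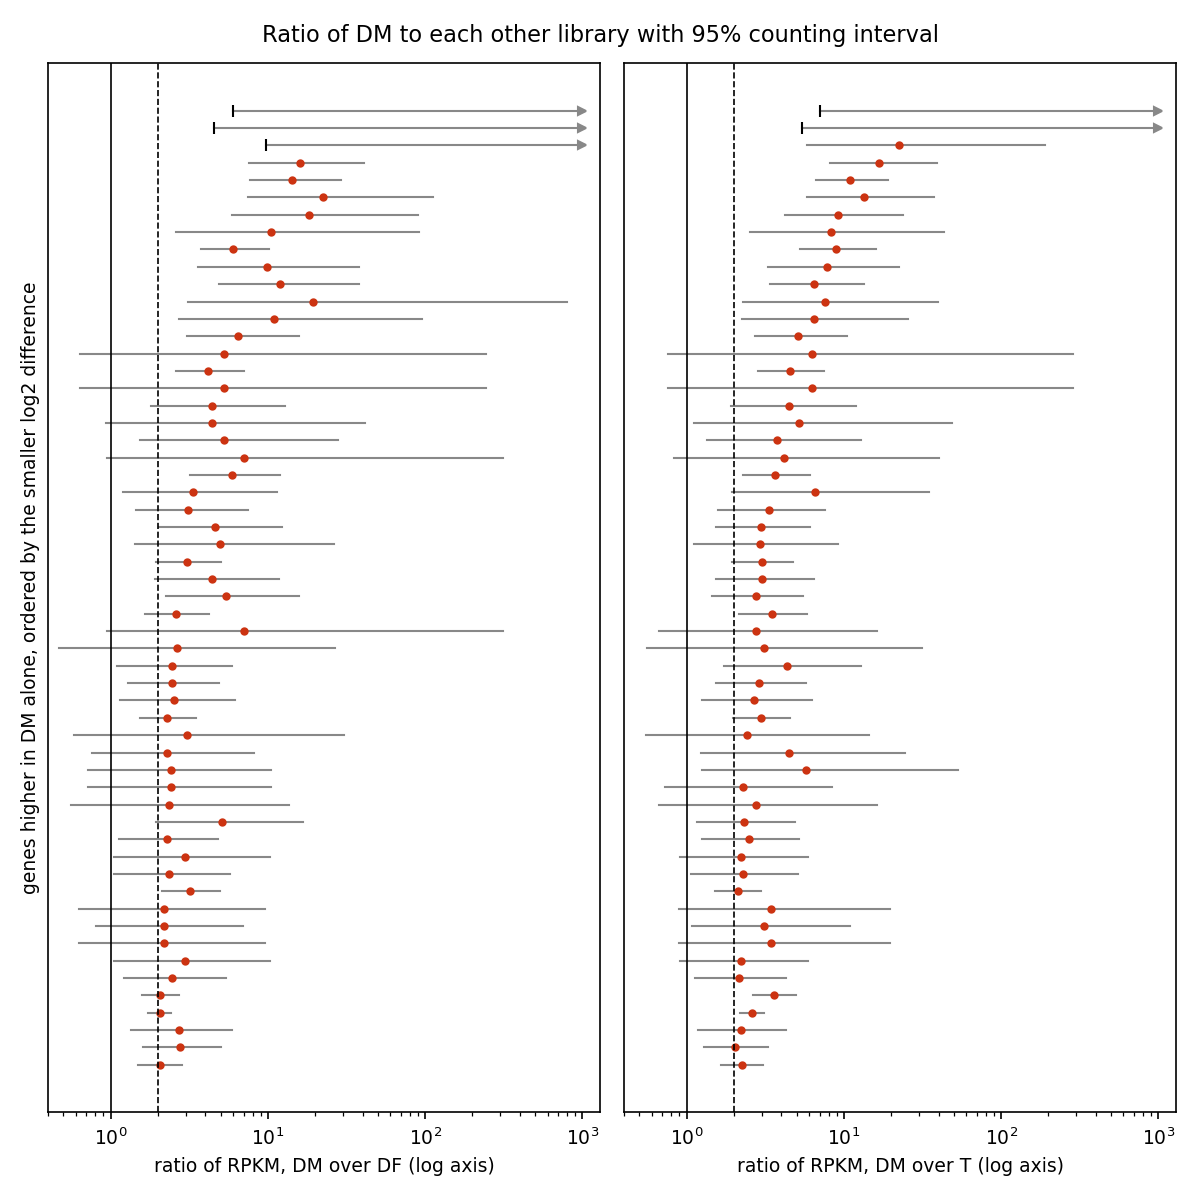
Ratio of RPKM in DM to DF (left) and to T (right) for the 56 members, on log axes, ordered from the largest smaller log2 difference at the top. Red points are ratios, grey lines 95% counting intervals, and lines with an arrow have 0 reads in the other library, so that only the lower limit (black tick) is shown. The solid line marks 1 and the dashed line 2, and the upper 14 intervals lie right of 2 in both panels.

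Over the whole set, the counting interval of the ratio left out 1 against both other libraries in 40 of 56 members, which is 0.469% of the 8524 genes. The same held for 809 genes higher in DF alone (9.49%) and 211 higher in T alone (2.48%). It left out 1 against DF in 42 members and against T in 44. With the larger totals it would leave out 1 against both in 46. It left out 2-fold against both in 16 members, namely the 14 described above and 2 of the 42 with smaller differences. The 40 members had 17 to 471 reads in DM with a median of 38. The 16 others had only 6 to 17 reads in DM with a median of 10. For them a ratio of 1 to at least 1 of the other libraries lay within the counting error. As with the 14, the same values chose all 56 members. The intervals of the 40 therefore describe their depth and are no independent support for a difference.

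DF and T, the libraries set against DM, showed no common order among the members. T was above DF in 29 members, DF was above T in 25, and both were at 0 in 2. Over the 8524 genes T was above DF in 33.4%. The log2 difference of T from DF among members ran from -0.96 to 0.97 with a median of 0.03, where the 8524 genes had a median of -0.29. The rule keeps this difference under 1 in size, which bounds its range. It names no sign, but its limits on DM bear on DF and T too. The 8524 genes did not have to meet these limits, so their values are no like comparison for the split. In 41 members DF and T were less than 1.5-fold apart on the log2(RPKM + 1) scale.

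The limits of the rule cut through a continuous range of differences. The member just inside the fold limit had 36.1 RPKM in DM from 136 reads, against 17.5 in DF from 58 and 16.1 in T from 63, with a smaller log2 difference of 1.0003. The gene just outside had 0.9995. Within 0.1 of the limit, 16 members lay inside and 10 genes outside. The largest gap between DF and T inside the rule was 0.97 and the smallest outside 1.01. The lowest mean inside was 5.09 RPKM, against 4.996 for the nearest gene outside, and the highest mean inside was 425 RPKM.

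Coding length, recovered with the reads and taken as a multiple of 3 nt, was not used by the rule. The members had a median length of 507 nt, with quartiles of 300.0 and 1001 nt, where the 8524 genes had a median of 909 nt, with quartiles of 519 and 1501. Genes higher in DF alone had a median of 858 nt and genes higher in T alone 767 nt. Under 450 nt were 27 of 56 members (48.2%), 19.9% of the 8524 genes, 21.1% of those higher in DF alone and 27.0% of those higher in T alone. Recovered lengths and reads are lower limits, because a factor shared by a gene's reads and its length cannot be seen. Such a factor makes a gene short and poor in reads at once, and its counting intervals too wide.

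Within these limits, the short members were mostly those with few reads. Of the 16 members whose counting interval held 1, 15 were under 450 nt and their median length was 289.5 nt. The 40 others had a median of 739.5 nt, and the 14 with the largest differences 955.5 nt, close to the 8524 genes. At a given RPKM a short gene has fewer reads, so its ratio moves more by counting. By length, the rule was met in 1.59% of genes under 450 nt, 0.515% from 450 to under 900 nt, 0.423% from 900 to under 1800 nt and 0.272% from 1800 nt. With the counting interval also required to leave out 1, the shares were 0.709%, 0.475%, 0.423% and 0.272%. For T alone the shares with the interval were 2.48%, 2.53%, 2.43% and 2.45% in the same order, and for DF alone 7.68%, 10.1%, 10.3% and 9.04%.

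**Figure D4:**
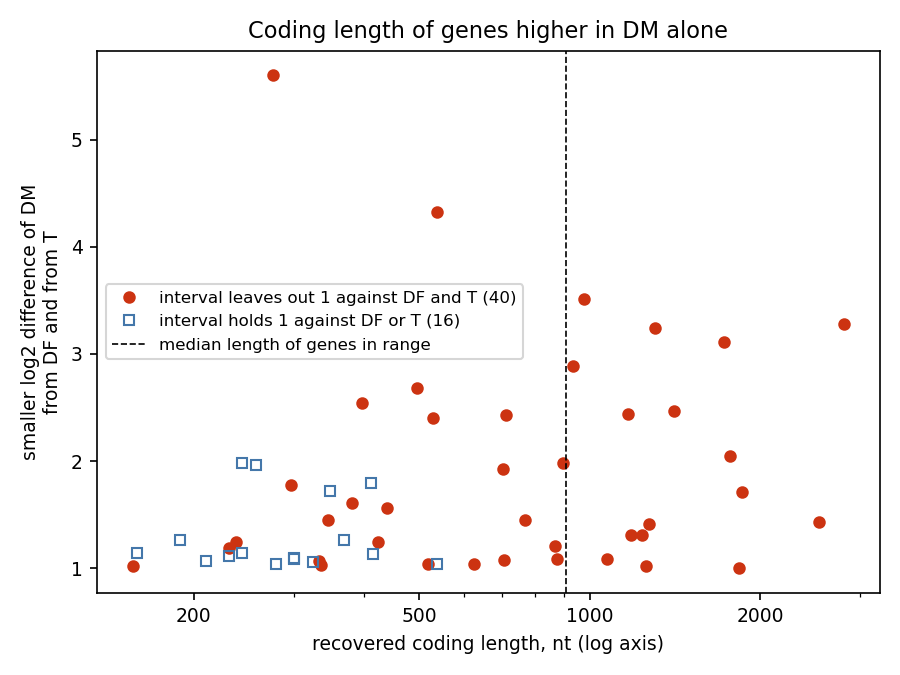
Recovered coding length in nt (horizontal, log axis) and smaller log2 difference of DM from DF and from T (vertical) for the 56 members. Filled red points are the 40 members whose 95% counting interval left out 1 against DF and T, open blue squares the 16 others, and the dashed line marks the median length of 909 nt over the 8524 genes. The open squares lie at short lengths, up to 537 nt, and under a difference of 2.

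By level, the rule was met in 25 of 2478 genes with a mean of 5 to under 10 RPKM (1.01%), in 25 of 3263 from 10 to under 30 (0.766%), in 2 of 1891 from 30 to under 100 (0.106%) and in 4 of 892 from 100 to under 1000 (0.448%). For genes higher in DF alone these shares were 12.1%, 10.9%, 10.6% and 5.61%, and for T alone 4.40%, 2.79%, 1.75% and 1.68%. In each library the share was highest in the lowest class. The classes above 30 RPKM held only 6 members, too few to read an order from.

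The size of the set turned on the scaling between libraries. After median-of-ratios scaling, which divides each library by the median ratio of its genes to their geometric mean over the 3 libraries, 341 genes met the rule for DM, 468 for DF and 223 for T. The median log2 difference of DM over the 8524 genes was then 0.02 from DF and 0.00 from T. Trimmed mean scaling gave 327, 468 and 228 genes. Leaving the most abundant gene out of the totals gave 102, 719 and 241. DM had fewer genes to itself than T as deposited and more than T under median-of-ratios and trimmed mean scaling, so their order on the upper side depended on the scaling. On the lower side, median-of-ratios scaling gave 404 genes for DM, 295 for DF and 150 for T, and DM had the most under each of the 5 scalings.

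**Figure D5:**
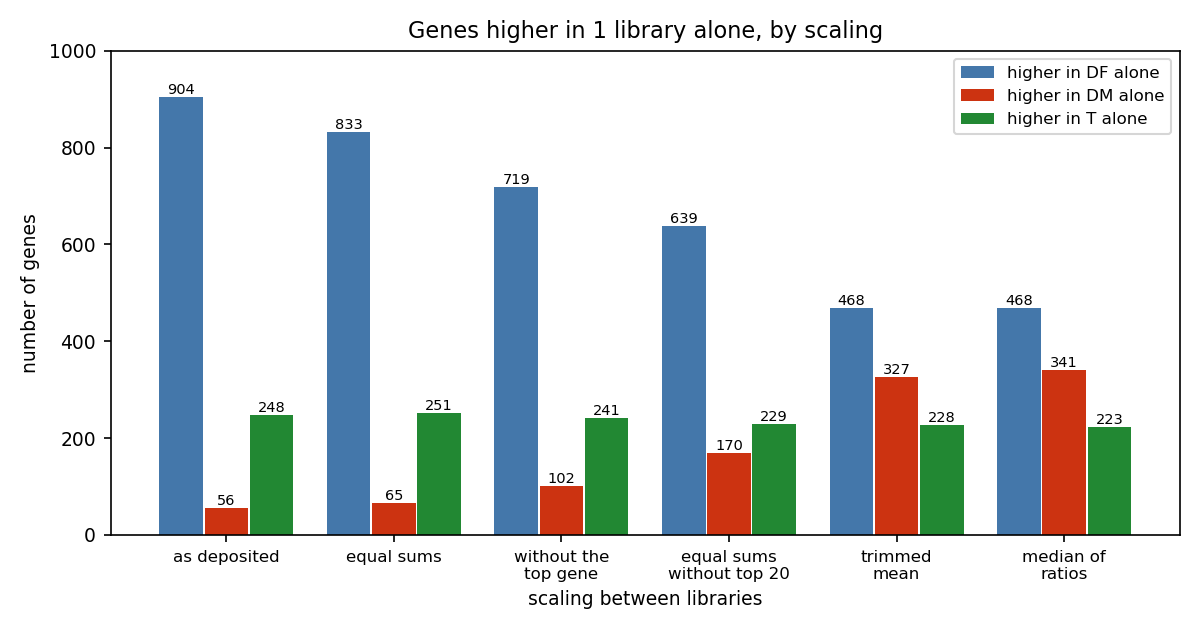
Number of genes (bars, from 0) higher in DF alone, DM alone and T alone by the same rule, for the deposited values and 5 other scalings between libraries. The count for DM rises from 56 as deposited to 341 after median-of-ratios scaling, while that for DF falls from 904 to 468 and that for T stays between 223 and 251.

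Each of the 5 other scalings raised DM against DF and T, so no member could fall below the fold limit by them. Between 54 and 56 of them met the whole rule, and the 1 or 2 that dropped out did so because DF and T came to lie 2-fold or more apart. After median-of-ratios scaling the members made up 15.8% of the genes that met the rule, and 96.4% of the members were among them. Their smaller log2 difference then had a median of 1.95, against 1.36 as deposited, and a lowest value of 1.49. All scalings use the same reads, so they are no second measurement.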

How the data were processed

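Adductor muscle mRNA, taken with oligo(dT), was sequenced in 3 libraries, per the labels' protocols. The submitters' processing notes name TopHat, with no version. Which counter, build and annotation were used is not given in the sources at hand. The deposited values are RPKM, computed by the authors, for 28027 identifiers. Read totals and whole reads were recovered from the spacing of the RPKM values, with coding lengths as multiples of 3 nt: for 100% of 19931 genes above 0, reads were whole in each library (tolerance 1e-06 of a read plus a share of 2e-09), and they summed to between 97.5% and 98.0% of the totals. The recovery and the rule were run on simulated data as a check of the code. There, the changed genes had at least 20 expected reads in DM before the change, and the libraries were otherwise alike in composition. The simulation therefore does not show how the rule behaves for genes with few reads, such as the 19 members with under 20 reads in DM. Nor does it cover libraries in which the most abundant gene takes unlike shares. Intervals are 95% exact (Poisson for levels, Clopper-Pearson for shares and ratios), computed with scipy 1.17.1. With 1 library per label there is no replicate, so no p-value was computed. Named by identifier are the member with the largest smaller difference and that with the highest DM level. The members and the rules were chosen with earlier results of these data known. Planned lists of muscle, immune, germ cell, stress, ribosomal and mitochondrial products were not used, since no identifier has a name.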

Additional observations from a re-analysis of the deposited data

How the results depend on the processing

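Of 97 recomputations of the counts, medians and named genes, 50 stayed close to the reported value (within 1.5 times for a count, within the counting interval otherwise) and 47 moved. A change of direction was not possible. Counts have none, and neither the pseudocounts nor the scalings used could reverse a member's difference. For the 2 named genes, asking for the counting interval left the value as it was. Except where fewer or more genes were admitted by a limit, the cause of a move was not tested. For genes higher in DM alone, DF alone and T alone in turn, no lower limit on the mean gave 356, 2156 and 1053, a mean of at least 1 RPKM 129, 1581 and 586, a limit of 1.5-fold 151, 1830 and 520, and a limit of 4-fold 14, 216 and 67. A mean of at least 10 RPKM left 31 for DM and 139 for T, and no limit on the gap between the other libraries gave 101 and 458. For DM, median-of-ratios scaling gave 341, trimmed mean scaling 327, equal sums without the 20 most abundant genes 170, and reads without the top gene 102. For DF the first 2 of these gave 468 each. Chosen after seeing the data, median-of-ratios scaling with the counting interval gave 304 for DM and 419 for DF, and at least 20 reads in DM left 37 genes. Also added were genes lower in 1 library alone: under median-of-ratios scaling, trimmed mean scaling and equal sums less the 20 top genes these were 404, 416 and 567 for DM and 295, 301 and 207 for DF, and 745 for DM with reads without the top gene. A pseudocount of 5 gave 66 genes for DM, of which 34 were members, and a pseudocount of 0.1 gave 59, of which 51 were members, so that the count hides a change of genes.

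Under median-of-ratios scaling, trimmed mean scaling, equal sums without the 20 most abundant genes and reads without the top gene, in turn, the smaller log2 difference of CGI_10005960 was 1.83, 1.82, 1.54 and 1.35. The median difference of the members from DF was 2.45, 2.45, 2.19 and 2.02, and from T 2.15, 2.14, 1.997 and 1.86. A pseudocount of 0.1 gave 1.89 from DF, and one of 5 gave 1.24 from DF and 1.28 from T. The smaller log2 difference of CGI_10023821 ran from 3.39 to 8.90, the ends being set by the pseudocount. It was counted as close only because its counting interval has no upper limit, for want of reads in DF and T. Depth limits the low genes: 1 read in a gene of 1 kb is 0.486 RPKM for DM, 0.554 for DF and 0.468 for T. No paired analysis was possible because there is 1 library for each label.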

Other observations

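Outside the limits of the rule, 45 further genes of the 8524 in the range were at least 2-fold higher in DM than in DF and T, with DF and T 2-fold or more apart. T was above DF in 41 of them and DF above T in 4. The members were split 29 to 25, but they had to have DF and T less than 2-fold apart, so the splits are no like comparison. The split over all genes of the range with DF and T 2-fold or more apart is not given here. Among the 138 genes with a mean of 1000 RPKM or more, 1 met the other criteria, with 4369 RPKM in DM, against 2127 in DF and 1700 in T. The next nearest had 1498 RPKM in DM, against 851 in DF and 912 in T, and fell short of the fold limit. Below a mean of 5 RPKM, 300 genes met the fold criteria.

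Of the members, 7 (12.5%) had identifiers among the first 1000 numbers, against 2.99% of the 8524 genes, 4.42% of those higher in DF alone and 2.82% of those higher in T alone. These 7 were 159 to 345 nt long, had 7 to 18 reads in DM, and the counting interval left out 1 against both libraries in 2 of them. Genes of the range among these numbers had a median length of 441 nt. What the numbers stand for is not given in the files. Of 38 genes of the range whose number is next to that of a member, 0 were members, against 0.657% of the range. At that share, 38 genes are too few to show whether members lie side by side. In 7 of the 38 (18.4%) DM was the highest library, against 11.6% of the range.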
